A study of Mus musculus with 16 samples.

Results

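The 10 genes described here bring long-chain fatty acids into cells, bind them there or store them. They are Cd36, Slc27a1 and Slc27a2, which take fatty acids up, Lpl, which frees them from circulating triglyceride, Angptl4, which inhibits Lpl, the binding proteins Fabp1, Fabp3, Fabp4 and Fabp5, and Plin2, which coats lipid droplets. The genes were taken by name. A probeset was used where it was annotated to exactly 1 gene symbol, and of several probesets for a symbol the one with the highest mean over the 16 arrays was kept. All 10 genes were found, of 30142 genes measured in this way, on 11 probesets, since Fabp3 had 2. No gene was left out for low values.

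RNA came from glomerular extracts of the kidney cortex of 16 female mice, with 1 array per mouse. Wild-type mice were C57Bl/6, and the others were B6.ERαKO, which lack ERα, the oestrogen receptor that Esr1 encodes. Each genotype had 4 groups of 2 mice, of which 1 group was untreated and the others were given sheep nephrotoxic serum 18 hours, 6 days or 2 weeks before harvest, injected intraperitoneally at 8 ul per g to start nephritis directed at the glomerular basement membrane. The series asks how ERα bears on lipid metabolism and on glomerulonephritis. No source used here gives the allele of the knockout, its extent over cell types or the age of the mice.

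Long-chain fatty acids reach cells bound to albumin or are freed from triglyceride-rich lipoproteins by lipoprotein lipase on the endothelial surface. CD36 and the SLC27 family, also called fatty acid transport proteins, move them into the cell, and the SLC27 proteins also join them to coenzyme A. Inside, FABP proteins carry them to mitochondria, peroxisomes, the nucleus or lipid droplets. Proximal tubule cells draw most of their energy from fatty acid oxidation, and many of these genes are known targets of the PPAR receptors, nuclear receptors that bind fatty acids.

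The promoters of Cd36 and Fabp1 are shown because these genes differed most, in opposite directions, between the genotypes. Windows of 250 bases before the transcription start were read from RefSeq (GRCm38.p6), and 6 of the 10 genes had an entry, with 8 windows in all. Fabp4, Fabp5, Lpl and Angptl4 have no entry. PPAR receptors bind with RXR to a direct repeat of the half-site AGGTCA with 1 base between the copies. Capitals mark each half-site, on either strand, and in Fabp1 also the whole repeat that holds one of them. The Cd36 window is chr5:17835897-17836146 on the minus strand and the Fabp1 window is chr6:71199629-71199878 on the plus strand, both 5′ to 3′.
Cd36: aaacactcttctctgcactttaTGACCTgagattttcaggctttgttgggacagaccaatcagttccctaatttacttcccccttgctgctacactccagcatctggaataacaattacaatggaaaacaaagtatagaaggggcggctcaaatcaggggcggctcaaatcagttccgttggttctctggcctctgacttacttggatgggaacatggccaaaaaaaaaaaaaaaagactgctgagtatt
Fabp1: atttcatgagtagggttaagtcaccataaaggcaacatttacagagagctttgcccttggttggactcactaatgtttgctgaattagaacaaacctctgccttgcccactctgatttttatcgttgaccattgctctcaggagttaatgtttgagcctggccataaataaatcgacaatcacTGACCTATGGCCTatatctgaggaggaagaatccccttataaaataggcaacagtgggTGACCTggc
The half-site stood in the windows of Cd36, Fabp1, Plin2 and Slc27a2, 4 of the 8 windows of these genes, and in 14% of all 32851 windows. The strict repeat AGGTCANAGGTCA stood in none of the 8 and in 0.0335% of all. A looser form, AGGNCANAGGTCA, was chosen after the sequences were seen and includes every strict match. It stood in Fabp1 as TGACCTATGGCCT, 67 to 55 bases before the start, and in 0.0822% of all windows. The oestrogen response element GGTCANNNTGACC stood in none of the 8 windows and in 0.0639% of all. All motifs were searched on both strands, and a half-site within a repeat was counted under both. A match is a string of letters in this window and no measured binding.

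The deposited values are on a log2 scale, from 2.22 to 19.93, with array medians between 5.57 and 5.9. A transformation beyond a plain log2 is present and unstated, so levels and differences are given in deposited log2 units and not as folds of RNA. Against 23 background control probesets, 8 of the 10 genes lay above the highest control on all 16 arrays. Fabp1 did so on 7 arrays, 6 of them wild type and 1 knockout, and Fabp5 on none. Values of Esr1 were 6.35 to 7.53 in the wild type and 7.11 to 7.64 in the knockout. The wild-type 7.53 and the knockout 7.11 were the 18-hour replicate 2 arrays. On the other 14 arrays Esr1 was 6.35 to 7.04 in the wild type and 7.29 to 7.64 in the knockout. It was thus higher in the knockout there without overlap, and 0.999% of all genes did not overlap on those arrays. This probeset did not show the lower level a deleted transcript would give, and whether it lies in the deleted part is not known, so it does not check the genotype labels. All 6 proximal tubule markers and all 6 glomerular endothelial markers, with 3 of 5 podocyte markers, were above the highest background control on every array, so the extracts held RNA of tubule as well as of glomeruli. None of 5 adipocyte markers was above it on every array, and Adipoq lay between 5.15 and 6.72.

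Of the 16 arrays, 3 stood apart from their groups on markers outside the 10 genes. In the library labelled wild type 18 hours replicate 2 the mean of 6 genes that are higher in male kidney was 16.22, against 7.45 to 9.02 on the other 7 wild-type arrays. In the library labelled knockout 18 hours replicate 2 it was 7.43, against 12.41 to 16.56 on the other 7 knockout arrays. Both 18-hour replicate 2 arrays therefore stood with the other genotype. The tubule injury marker Havcr1 was 7.17 in knockout 2 weeks replicate 1 and 12.77 in replicate 2, while the wild-type arrays at that time had 13.23 and 12.56. Results are given over all 16 arrays, over 14 arrays without the 18-hour replicate 2 arrays, and over 13 arrays also without knockout 2 weeks replicate 1. These arrays were left out with their position known, so the 14-array and 13-array values describe those settings and are no independent test. A difference was called where limma's moderated test gave an adjusted p under 0.05 over all 30142 genes. These p-values rest on a spread between mice that is pooled over all groups, each of 2 mice at most. Over 16 arrays that spread includes the 18-hour pairs, in which 1 array stood with the other genotype.

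Cd36, the scavenger receptor that takes up long-chain fatty acids and oxidised lipoproteins, had the widest range of the 10 genes. In the wild type its values were 11.42 and 11.12 untreated, 12.28 and 14.22 at 18 hours, 12.08 and 11.43 at 6 days, and 9.55 and 9.70 at 2 weeks. In the knockout they were 14.33 and 13.52 untreated, 13.10 and 11.54 at 18 hours, 14.18 and 13.27 at 6 days, and 14.80 and 10.80 at 2 weeks. The untreated and 6-day knockout arrays all lay above every wild-type array of the same time. At 18 hours the second array of each genotype crossed over, and at 2 weeks the knockout arrays lay 4.0 apart while both still lay above the wild type. In the order of group means, from 13.92 in the untreated knockout to 9.62 in the wild type at 2 weeks, each group overlapped the next except at the last 2 steps, from wild type 6 days to untreated and on to 2 weeks.

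Slc27a1 and Slc27a2 encode fatty acid transport proteins that also activate very long-chain and long-chain fatty acids. Slc27a1 in the wild type was 9.55 and 9.37 untreated, 9.29 and 8.54 at 18 hours, 9.10 and 8.83 at 6 days, and 8.60 and 7.98 at 2 weeks. In the knockout it was 8.91 and 8.79 untreated, 8.63 and 8.94 at 18 hours, 8.18 and 8.00 at 6 days, and 8.26 and 8.64 at 2 weeks. Its untreated wild-type group stood above all others without overlap, and every later wild-type array lay below both untreated ones. Slc27a2, a gene of the proximal tubule, stayed within 17.38 and 18.75 on all arrays. The lowest 2 values were those of the wild type at 2 weeks, 17.38 and 17.48, which no other group overlapped, and the next was 17.67 in knockout 2 weeks replicate 2.

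Lpl encodes lipoprotein lipase, the enzyme that releases fatty acids from triglyceride-rich lipoproteins. Its wild-type values were 12.81 and 12.09 untreated, 12.55 and 12.09 at 18 hours, 13.25 and 11.85 at 6 days, and 9.74 and 9.85 at 2 weeks. Knockout values were 12.73 and 11.73 untreated, 11.61 and 12.09 at 18 hours, 12.51 and 11.48 at 6 days, and 13.30 and 10.83 at 2 weeks. The wild-type pair at 2 weeks lay below the other 14 arrays, and the other 7 groups all overlapped their neighbours in the order of means.

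Angptl4 encodes a secreted inhibitor of lipoprotein lipase that PPAR receptors induce. It was 8.20 and 7.73 in the untreated wild type, 8.46 and 8.88 at 18 hours, 7.99 and 8.61 at 6 days, and 8.19 and 7.92 at 2 weeks. In the knockout it was 9.67 and 9.63 untreated, 9.22 and 7.18 at 18 hours, 8.88 and 9.47 at 6 days, and 9.16 and 9.51 at 2 weeks. With the 18-hour replicate 2 arrays aside, every knockout array lay at 8.88 or above and every wild-type array at 8.61 or below.

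The binding proteins differed in pattern. Fabp1, the liver form, was in the wild type 6.65 and 7.54 untreated, 7.38 and 5.42 at 18 hours, 6.87 and 7.29 at 6 days, and 6.2 and 7.35 at 2 weeks. In the knockout it was 5.49 and 5.42 untreated, 5.60 and 6.75 at 18 hours, 5.30 and 5.51 at 6 days, and 5.01 and 5.61 at 2 weeks. As for Cd36, the 18-hour replicate 2 arrays carried the values of the other genotype. The remaining 7 knockout arrays were not above the highest background control, which limits what the size of a difference can show. Fabp3, the heart form, was in the wild type 9.42 and 10.83 untreated, 9.76 and 8.89 at 18 hours, 9.13 and 9.74 at 6 days, and 7.17 and 8.19 at 2 weeks. Knockout values of Fabp3 were 10.09 and 10.48 untreated, 9.12 and 9.53 at 18 hours, 9.68 and 8.99 at 6 days, and 9.55 and 8.35 at 2 weeks. Its wild-type pair at 2 weeks lay below all other arrays, and its second probeset stayed between 4.29 and 5.04.

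Fabp4, a binding protein of adipocytes, endothelium and macrophages, was in the wild type 8.99 and 9.08 untreated, 9.0 on both arrays at 18 hours, 10.41 and 10.69 at 6 days, and 9.14 and 9.15 at 2 weeks. In the knockout it was 9.51 and 9.67 untreated, 8.34 and 8.98 at 18 hours, 10.02 and 10.54 at 6 days, and 9.23 and 10.94 at 2 weeks. The 6-day arrays of both genotypes and knockout 2 weeks replicate 2 were the only arrays above 10. Fabp5, the epidermal form, lay between 4.40 and 5.68, never above the highest background control, with its 2 highest values, 5.68 and 4.98, in the wild type at 6 days. Plin2, the coat protein of lipid droplets in most cells, lay between 10.17 and 11.75, with its highest values, 11.24 and 11.75, in the knockout at 6 days.

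**Figure D1:**
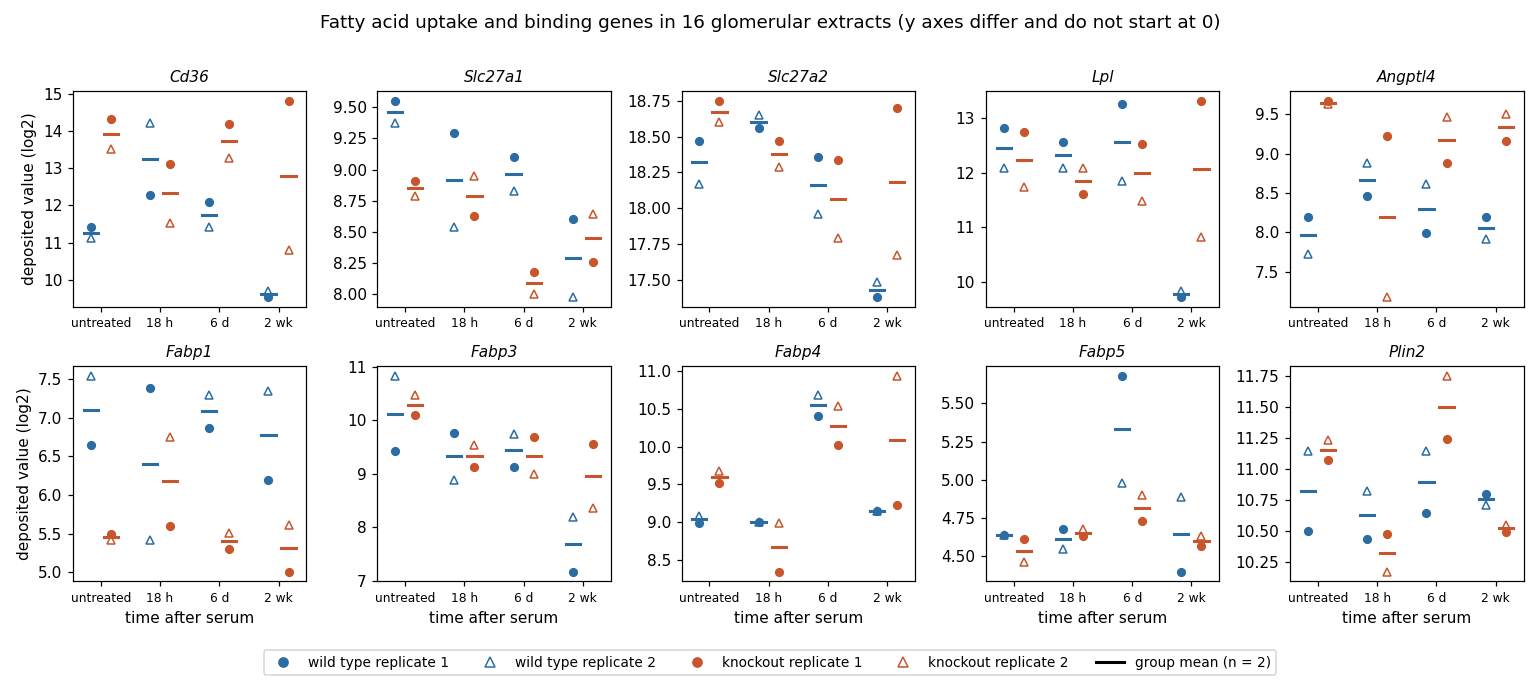
Deposited log2 values (y axis, which differs between panels and does not start at 0) of each of the 10 genes against time after serum, with 1 point per mouse, circles for replicate 1, open triangles for replicate 2, and a bar at the mean of the 2 mice. Wild type (blue) and knockout (orange) are apart for Angptl4 and Fabp1 except at 18 hours, and the wild-type pair at 2 weeks is lowest for Lpl, at 9.74 and 9.85, and for Fabp3, at 7.17 and 8.19.

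Over the 4 times together, Cd36 and Angptl4 lay higher on average and Fabp1 and Slc27a1 lower in the knockout, but with all 16 arrays no gene passed the test. Over 16 arrays Cd36 differed by 1.72 ± 0.53 (knockout minus wild type, SE; adjusted p = 0.288), Angptl4 by 0.84 ± 0.25 (adjusted p = 0.282), Fabp1 by -1.25 ± 0.30 (adjusted p = 0.25) and Slc27a1 by -0.36 ± 0.13 (adjusted p = 0.337). These 4 genes had an unadjusted p under 0.05. The other 6 differed by -0.15 to 0.34, with adjusted p-values of 0.583 to 0.818. In limma 0 of the 10 genes and 0 of all 30142 (0%) were called, while 3514 of all genes had an unadjusted p under 0.05. The median difference of the 10 was 0.21, against -0.01 over all genes.

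Without the 18-hour replicate 2 arrays, Angptl4 was higher and Fabp1 lower in the knockout. Over these 14 arrays Angptl4 had a mean of 9.36 ± 0.29 in the knockout and 8.16 ± 0.31 in the wild type (SD, 7 mice each), a fitted difference of 1.15 ± 0.16 (SE, adjusted p = 0.00903). Fabp1 had means of 5.42 ± 0.21 and 7.04 ± 0.49, a fitted difference of -1.64 ± 0.22 (adjusted p = 0.00925). These were 2 of 10 genes called, 1 in each direction, where 519 of all genes (1.72%) were called. For both genes the genotypes did not overlap on any of the 14 arrays, which held for 301 of all genes (0.999%). On all 16 arrays none of the 10 was separated in this way. Cd36 (2.16 ± 0.56, adjusted p = 0.11) and Slc27a1 (-0.50 ± 0.13, adjusted p = 0.0985) did not pass over 14 arrays.

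Cd36 passed only when 1 of the 2-week knockout arrays, which lay 4.0 apart, was left out. Over 13 arrays, without replicate 1, it was higher in the knockout by 1.66 ± 0.22 (adjusted p = 0.00554), with Angptl4 at 1.2 ± 0.16 (adjusted p = 0.00562) and Fabp1 at -1.57 ± 0.22 (adjusted p = 0.00863). Those were 3 of 10 genes where 786 of all genes (2.61%) were called. From all 16 arrays, leaving out knockout 2 weeks replicate 2 alone gave Cd36 2.22 ± 0.34 (adjusted p = 0.0133) and Fabp1 -1.33 ± 0.32 (adjusted p = 0.038), with 2196 of all genes (7.29%) called.

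**Figure D2:**
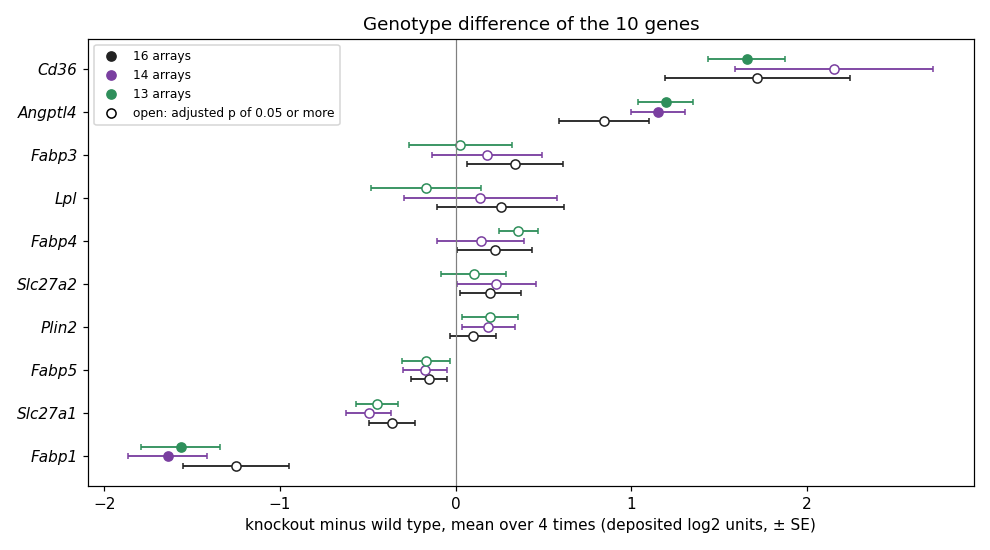
Fitted difference between knockout and wild type (x axis, deposited log2 units, mean over the 4 times, bars ± SE) for each of the 10 genes over 16, 14 and 13 arrays, filled where the adjusted p was under 0.05. Angptl4 lies at 0.84, 1.15 and 1.2 and Fabp1 at -1.25, -1.64 and -1.57, while Cd36 is filled only over 13 arrays.

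Within single times each genotype had only 2 mice. In untreated mice Cd36 was 13.92 ± 0.57 in the knockout and 11.27 ± 0.21 in the wild type (SD, 2 mice each), so that they differed by 2.65 ± 1.06 (SE, adjusted p = 0.922), and Angptl4 differed by 1.69 ± 0.51 (adjusted p = 0.902). Fabp1 differed by -1.64 ± 0.60 (adjusted p = 0.918) and Slc27a1 by -0.61 ± 0.27 (adjusted p = 0.941). Over 16 arrays limma called 0 of the 10 and 0 of all genes (0%), with 1564 at an unadjusted p under 0.05. Over 13 arrays Cd36 (2.65 ± 0.37, adjusted p = 0.0178) and Angptl4 (1.69 ± 0.27, adjusted p = 0.0329) were called, 2 of 10 where 190 of all genes (0.63%) were. The spread in this fit is shared by all groups, so it could change although no untreated array had been left out. For Cd36 the SE was 1.06 over 16 arrays, 1.01 over 14 and 0.37 over 13. The Cd36 spread thus fell mainly when the divergent knockout array at 2 weeks was also left out. For Angptl4 the SE was 0.51, 0.28 and 0.27 in the same order. The Angptl4 spread thus fell mainly between 16 and 14 arrays, before that array was left out.

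At 18 hours, where 1 array of each genotype stood with the other, limma called 0 of the 10 and 0 of all genes (0%), with 707 genes and none of the 10 at an unadjusted p under 0.05. At 6 days Fabp1 differed by -1.68 ± 0.60 (adjusted p = 0.943), Slc27a1 by -0.88 ± 0.27 (adjusted p = 0.919) and Plin2 by 0.60 ± 0.26 (adjusted p = 1). None of the 10 was called there, with 2 of all genes (0.00664%) called and 4 of the 10 at an unadjusted p under 0.05. With a fit to the 4 arrays at 6 days alone, Fabp1 passed (adjusted p = 0.0436), with 113 of all genes (0.375%) called. At 2 weeks Cd36 differed by 3.18 ± 1.06 (adjusted p = 0.17), Lpl by 2.27 ± 0.72 (adjusted p = 0.158) and Angptl4 by 1.28 ± 0.51 (adjusted p = 0.218). None of the 10 was called at 2 weeks, where 55 of all genes (0.182%) were and 5 of the 10 had an unadjusted p under 0.05. Of the 55, 11 were higher and 44 lower, against 12 and 14 after quantile normalization and 10 and 7 after median centring. Without knockout 2 weeks replicate 2, Cd36 (5.18 ± 0.79, adjusted p = 0.00306), Lpl (3.51 ± 0.62, adjusted p = 0.0055) and Slc27a2 (1.27 ± 0.33, adjusted p = 0.0245) were higher in the remaining knockout mouse, with 5331 of all genes (17.7%) called. Over 13 arrays, where replicate 2 is the remaining knockout mouse, the same differences were 1.18 ± 0.45 for Cd36 (adjusted p = 0.536), 1.04 ± 0.65 for Lpl (adjusted p = 0.662) and 0.24 ± 0.39 for Slc27a2 (adjusted p = 0.843). The 2-week differences of these 3 genes thus rest on which knockout mouse is kept. Replicate 1 had Havcr1 near the untreated values, so genotype and the extent of injury cannot be told apart there.

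At 2 weeks after serum, Lpl, Fabp3 and Slc27a1 fell in the wild type. Lpl fell by 2.66 ± 0.72 (SE; limma adjusted p = 0.0479), from a mean of 12.45 ± 0.51 to 9.80 ± 0.08 (SD, 2 mice each). Fabp3 fell by 2.45 ± 0.55 (adjusted p = 0.0289), from 10.12 ± 0.997 to 7.68 ± 0.72, and Slc27a1 fell by 1.17 ± 0.27 (adjusted p = 0.0297), from 9.46 ± 0.13 to 8.29 ± 0.43. These were 3 of 10 genes lower and 0 higher, where 2424 of all genes (8.04%) were called, 1450 higher and 974 lower. Slc27a2 differed by -0.89 ± 0.35 (adjusted p = 0.12) and Cd36 by -1.65 ± 1.06 (adjusted p = 0.299). The other 5 genes differed by -0.32 to 0.11. The median over the 10 was -0.61, against 0.13 over all genes.

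Support for these calls varied with the arrays used. Over 14 arrays 1 of the 10 was called, Slc27a1 (adjusted p = 0.0391), where 859 of all genes (2.85%) were. Fabp3 (adjusted p = 0.0542) and Lpl (adjusted p = 0.087) were not called there, with the same differences as over 16 arrays. Over 13 arrays 4 of the 10 were called, Cd36 (-1.65 ± 0.37, adjusted p = 0.0238), Fabp3 (adjusted p = 0.0169), Lpl (adjusted p = 0.0161) and Slc27a1 (adjusted p = 0.0103), where 3884 of all genes (12.9%) were. Leaving out either untreated wild-type array, or wild type 2 weeks replicate 2, left 0 of the 10 called, and at most 231 of all genes. Without wild type 2 weeks replicate 1 only Slc27a1 was called (adjusted p = 0.00825), with 7438 of all genes (24.7%). Lpl kept its call in 2 of the 16 fits that left out an array, those without a knockout 2-week array. In a fit to the 4 arrays compared alone, Fabp3 (adjusted p = 0.0858) and Slc27a1 (adjusted p = 0.0796) were not called, while Lpl (adjusted p = 0.0342) and Cd36 (adjusted p = 0.0375) were, 2 of 10 where 619 of all genes (2.05%) were.

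Scaling moved the background of this comparison. The median difference of all genes was 0.13 as deposited, -0.01 after quantile normalization and -0.09 after centring each array on its median. Quantile normalization left 486 genes higher and 611 lower, with Fabp3 and Slc27a1 still called and Lpl not (adjusted p = 0.0658). Median centring gave 538 higher and 2728 lower, with Fabp3, Lpl, Slc27a1 and Slc27a2 called. Lpl, Fabp3, Slc27a1 and Slc27a2 lay below 0 under each of these 3 scalings.

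The falls stood beside a loss of tubule signal. In the wild type at 2 weeks 4 of 6 proximal tubule markers were called lower, with a median difference of -2.20, and the mean of the 6 was 13.55 and 14.45 at 2 weeks against 15.91 and 16.48 untreated. Of 6 macrophage markers 3 were called higher, and of 4 tubule injury markers 2. All 6 glomerular endothelial markers, from the cells that hold lipoprotein lipase at the vessel wall, lay above 0 with a median of 1.30, and none was called. In bulk extracts fewer cells of a type and less RNA per cell cannot be told apart. The part of these changes in the differences of Lpl, Fabp3 and Slc27a1 was not tested.

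**Figure D3:**
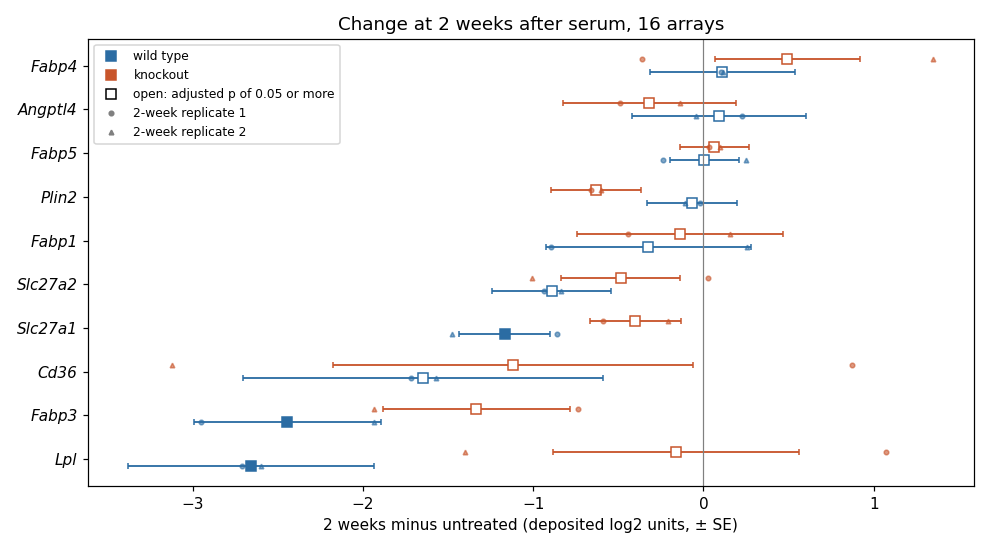
Difference between 2 weeks after serum and untreated (x axis, deposited log2 units) for each of the 10 genes in wild type (blue) and knockout (orange) over 16 arrays, with squares for the fitted difference ± SE, filled where the adjusted p was under 0.05, and small symbols for each 2-week mouse minus the untreated mean. Lpl, Fabp3 and Slc27a1 are filled in the wild type, and the 2 knockout mice lie on opposite sides of 0 for Cd36, Lpl, Fabp4, Fabp1 and Slc27a2.

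In the knockout at 2 weeks none of the 10 was called over 16 arrays, where 33 of all genes (0.109%) were. Fabp3 differed by -1.33 ± 0.55 (adjusted p = 0.562), Plin2 by -0.63 ± 0.26 (adjusted p = 0.569), Cd36 by -1.12 ± 1.06 (adjusted p = 0.818) and Lpl by -0.16 ± 0.72 (adjusted p = 0.979). The pair of mice did not move together: Lpl was 13.30 and 10.83 and Cd36 14.80 and 10.80, with Havcr1 at 7.17 and 12.77 in the same order. The mean of the proximal tubule markers was 16.12 and 14.26. Over 13 arrays, which leave replicate 2 as the only knockout mouse at 2 weeks, Cd36 fell by 3.12 ± 0.45 (adjusted p = 0.0193) and Fabp4 rose by 1.35 ± 0.23 (adjusted p = 0.0252). These were 2 of 10 genes where 1312 of all genes (4.35%) were called, and the lone mouse is assumed to vary like the other groups.

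Over 16 arrays the difference of the 2-week response between genotypes was largest for Lpl, at 2.50 ± 1.02 (knockout response minus wild-type response; limma adjusted p = 0.652). Slc27a1 differed by 0.77 ± 0.38 (adjusted p = 0.665) and Cd36 by 0.53 ± 1.49 (adjusted p = 0.926). None of the 10 and none of all genes (0%) was called, with 2244 at an unadjusted p under 0.05. The falls seen in the wild type are therefore not shown to differ from the knockout. Without knockout 2 weeks replicate 2, Lpl passed (3.73 ± 0.80, adjusted p = 0.0484), with 535 of all genes (1.77%) called. Over 13 arrays, without replicate 1, Lpl differed by 1.26 ± 0.84 (adjusted p = 0.745), and Cd36 turned to -1.47 ± 0.58 (adjusted p = 0.723), then the largest in size.

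At 6 days Fabp4 lay higher than untreated in both genotypes, on every array. In the wild type it differed by 1.51 ± 0.43 (limma adjusted p = 0.473), with means of 10.55 ± 0.20 against 9.04 ± 0.06 (SD, 2 mice each), and Fabp5 by 0.69 ± 0.20 (adjusted p = 0.488). None of the 10 and none of all genes (0%) was called, with 2106 at an unadjusted p under 0.05, these 2 of the 10 among them. Fabp4 passed without knockout 2 weeks replicate 1 (adjusted p = 0.0391) or without replicate 2 (adjusted p = 0.0388), with 42 of all genes (0.139%) called each time. These are arrays outside this comparison that enter through the shared spread. In the wild type the 6 glomerular endothelial markers lay above 0 at 6 days with a median of 0.85. The 6 macrophage markers did so with a median of 0.41, and adipocyte markers with a median of 0.07. None of these markers was called in the wild type. In the knockout the markers went both ways. There Cdh5 was 9.80 and 10.22 untreated and 11.20 and 12.14 at 6 days, while Csf1r was 9.07 and 8.94, then 8.54 and 7.93. The part of these markers in the Fabp4 difference was not tested. In the knockout at 6 days Fabp4 differed by 0.69 ± 0.43 (adjusted p = 0.864) and Slc27a1 by -0.76 ± 0.27 (adjusted p = 0.481), with none of the 10 and 4 of all genes (0.0133%) called. The 6-day response did not pass as different between genotypes for any of the 10 or of all genes (0%) in limma, with 395 genes at an unadjusted p under 0.05.

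At 18 hours limma called 0 of the 10 and 0 of all genes (0%) in the wild type, with 1186 genes at an unadjusted p under 0.05. In the knockout it likewise called 0 of the 10 and 0 of all (0%), with 1216 at an unadjusted p under 0.05, among them Angptl4 (-1.45 ± 0.51) and Plin2 (-0.83 ± 0.26), both at an adjusted p of 1. The difference of the 18-hour responses was called for 0 of the 10 and 0 of all genes (0%), with 1108 at an unadjusted p under 0.05. All 18-hour values rest on groups in which 1 of 2 arrays stood with the other genotype.

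Other genes of fatty acid handling were read from 6 lists that hold none of the 10. In the wild type at 2 weeks 9 genes of these lists were called over 16 arrays, all lower. Of 9 measured PPAR target genes 3 were lower, with a median of -1.36: Acadm, the medium-chain acyl-CoA dehydrogenase of mitochondria, fell by 2.71 ± 0.50 (adjusted p = 0.0171), Acaa1b, a peroxisomal thiolase, fell by 1.99 ± 0.24 (adjusted p = 0.00596), and Slc25a20, the mitochondrial carnitine carrier, fell by 1.14 ± 0.26 (adjusted p = 0.029). Of 7 PPAR receptors and partners 2 were lower, Ppara, the receptor PPARα, by -1.52 ± 0.40 (adjusted p = 0.044) and the coactivator gene Ppargc1b by -0.97 ± 0.24 (adjusted p = 0.0376). The list's median was -0.37.

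Of 19 lipid droplet and lipolysis genes 2 were lower, with a median of -0.32. Pnpla2, the main triglyceride lipase of droplets, fell by 1.06 ± 0.22 (adjusted p = 0.0237) and Fitm2, which helps droplets form, fell by 1.34 ± 0.32 (adjusted p = 0.0331). Of 13 other uptake and transport genes Scp2, a sterol and lipid carrier, fell by 1.36 ± 0.24 (adjusted p = 0.0158). Of 9 lipase partners Lmf1, which lipoprotein lipase needs to mature, fell by 0.83 ± 0.16 (adjusted p = 0.0205). None of 4 acyl-CoA synthetases was called, with a median of 0.24, and none of the 6 lists had a gene called higher. All genes had a median of 0.13 and 8.04% were called in this comparison. Over 14 arrays, where 2.85% of all genes were called, 4 of these 9 genes kept their call, Scp2, Lmf1, Acadm and Acaa1b. The other 5 did not pass, Pnpla2 (adjusted p = 0.0507), Slc25a20 (adjusted p = 0.057), Ppara (adjusted p = 0.0649), Fitm2 (adjusted p = 0.0675) and Ppargc1b (adjusted p = 0.0723). Over 13 arrays, where 12.9% of all genes were called, 7 of the 9 PPAR target genes were lower, among them Cpt1a, the entry enzyme of mitochondrial oxidation (-1.56 ± 0.22, adjusted p = 0.00535), and Ehhadh, a peroxisomal oxidation enzyme (-2.55 ± 0.51, adjusted p = 0.0159). Cav1, the caveolar protein, was the only list gene called higher there (0.89 ± 0.22, adjusted p = 0.0342). In the knockout at 2 weeks over 13 arrays 4 of the 9 PPAR target genes were lower, among them Cpt1a (-1.79 ± 0.27, adjusted p = 0.0196), where 4.35% of all genes were called.

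Between the genotypes over 16 arrays no gene of these lists was called. Over 14 arrays 3 were lower in the knockout: Cyp4a14, a fatty acid omega-hydroxylase, by -5.61 ± 0.88 (adjusted p = 0.0171), Mgll, the monoglyceride lipase, by -0.92 ± 0.16 (adjusted p = 0.0308), and Acsl5, a long-chain acyl-CoA synthetase, by -0.93 ± 0.18 (adjusted p = 0.0399). Over 13 arrays these 3 and Acadm (-0.76 ± 0.14, adjusted p = 0.0268) were lower. Cyp4a14 in untreated mice was 16.65 and 16.72 in the wild type and 11.01 and 11.47 in the knockout. At 18 hours it was 18.21 and 12.44 in the wild type and 13.09 and 17.21 in the knockout. Its replicate 2 arrays thus crossed as those of Cd36 and Fabp1 did. For Angptl4 the wild-type replicate 2 array, at 8.88, was only level with the lowest other knockout array in 14. The knockout one, at 7.18, lay below every wild-type array.

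Angptl4 and Fabp1, which separated the genotypes over 14 arrays, and Cd36, which overlapped, lay alongside genes known to differ between the sexes in mouse kidney. Over the 14 arrays the mean of 6 genes higher in male kidney was 7.45 to 9.02 in the wild type and 12.41 to 16.56 in these female knockout mice. Its lowest knockout value, 12.41, was in 2 weeks replicate 2, the array with the lowest Cd36 of the knockout, 10.80. On that array Angptl4 was 9.51, within the range of the other knockout arrays, and Fabp1 was 5.61, the highest of the 7. The mean of 3 genes higher in female kidney was 7.47 to 9.07 on the 7 knockout arrays. On the 7 wild-type arrays it was 9.51 and 9.92 at 2 weeks and 13.57 to 14.45 at the other times. The part of these genes in the differences of Cd36, Angptl4 and Fabp1 was not tested.

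**Figure D4:**
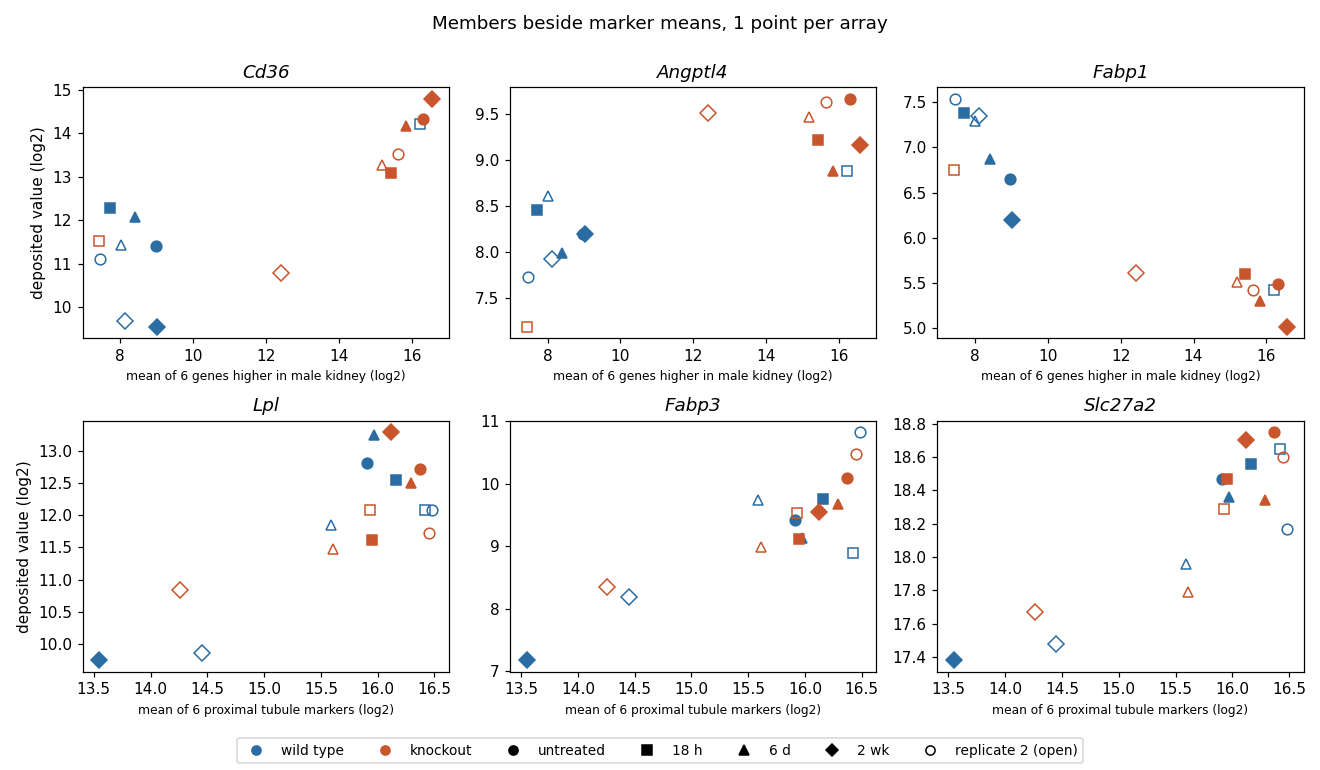
Deposited log2 values of 6 genes (y axes) against the mean of 6 genes higher in male kidney (upper panels) or of 6 proximal tubule markers (lower panels, x axes in deposited log2 units), with 1 point per array, blue for wild type, orange for knockout, shapes for time and open symbols for replicate 2. In the upper panels the open squares, the 18-hour replicate 2 arrays at 16.22 and 7.43, sit with the other genotype along the x axis. For Angptl4 the knockout one, at 7.18, lies below all wild-type arrays. In the lower panels the 3 arrays with tubule means from 13.55 to 14.45 have the lowest Slc27a2 values.

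Likeness of pattern was measured as the mean absolute difference from a gene over the 16 arrays, after each gene was centred on its own mean, among 17042 genes. It is a description without a test, and all genes share the same 16 arrays. Nearest to Cd36, whose own mean absolute deviation was 1.39, were Slc5a8 at 0.28 and Cndp2 at 0.347. Nearest to Fabp1 (own deviation 0.794) were Abcc4 at 0.296 and Mcoln2 at 0.328, and nearest to Angptl4 (0.635) were Lama3 at 0.337 and Fbxo10 at 0.353. For Lpl (0.782) they were Ces2b at 0.256 and Entpd5 at 0.37, for Fabp3 (0.665) Ndufa1 at 0.264 and Uqcrc1 at 0.272, and for Fabp4 (0.627) Cd151 at 0.304 and Kpna2 at 0.351. None of the nearest pairs named here was another of the 10 genes.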

How the data were processed

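RNA from 16 mice was measured on 1 Affymetrix array each after labelling from 10 ng with the WT Pico kit, per the labels' protocols. The authors deposited log2 values for 72688 probesets. Per the submitters' processing notes they used Affymetrix Expression Console and Transcriptome Analysis Console; no source used here gives versions, summarisation, normalization or annotation build.

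Of the probesets 30604 had exactly 1 gene symbol, 2146 had several and 39938 none. Symbols of 827 were updated through the Entrez identifier, and 355 genes had several probesets. Groups follow the labels throughout.

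Group means were fitted per gene over all 16 arrays with limma 3.58.1 under R 4.3.3 (8 residual degrees of freedom), moderated with an intensity trend, with Benjamini-Hochberg adjustment over all genes within a comparison. Groups of 2 arrays limit precision. The procedure was run on simulated data with planted differences and, for each gene, the same spread in every group. No simulated array stood apart from its group, so this run does not bear on such arrays.

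The 10 genes, the lists, the markers, the arrays left out and the tests were chosen with earlier results of these data known. Named genes are all 10, list genes that were called, otherwise up to 3 with the largest difference, and the 2 nearest in pattern for genes spanning 2 log2 units or more. Marker lists not described in the results, mesangium (3 of 4 measured) and distal nephron (4 of 4), had no gene called between genotypes or in the wild type at 2 weeks over 16 arrays.

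Replicate numbers were checked for pairing. Over 28 pairs of groups the correlation across genes of replicate 2 minus replicate 1 ran from -0.679 to 0.593, with a median of 0.04 and 11 above 0.1. The lowest was between the 18-hour groups, which hold the crossed arrays, and the highest between the knockout groups at 6 days and 2 weeks. The main fit treated the mice as unpaired, and this check cannot exclude a shared batch. Alternatives changed the filter, probesets, scaling, moderation, block and arrays.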

Additional observations from a re-analysis of the deposited data

Results flagged for a closer look

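At 18 hours 3 of the 10 genes moved in opposite directions in the genotypes, with both arrays of a group beyond both untreated arrays. The share of all genes that did so was not computed. The count therefore describes these genes and does not show that they moved more often than others. Cd36 lay 1.98 above untreated in the wild type and differed by -1.60 in the knockout. Angptl4 differed by 0.71 in the wild type and -1.45 in the knockout. Slc27a2 differed by 0.28 in the wild type and -0.30 in the knockout. In limma the difference of responses had an unadjusted p of 0.0354 for Cd36, 0.0122 for Angptl4 and 0.266 for Slc27a2, and an adjusted p of 1 for each. Over the 14 arrays without the 18-hour replicate 2 arrays, the wild-type and knockout differences were 1.01 and -0.82 for Cd36, 0.49 and -0.43 for Angptl4, and 0.24 and -0.21 for Slc27a2, each from 1 mouse at 18 hours, with an adjusted p of 1. In both groups 1 of 2 arrays stood with the other genotype, so the time and this crossing cannot be told apart.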

How the results depend on the processing

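The counts of the 10 genes called did not change by more than 1.5 times, in any of the 14 comparisons, when dim genes were left out, probesets averaged, arrays rescaled or the moderation changed. With the replicate block the count was the same in all 14, 3 in the wild type at 2 weeks and 0 elsewhere. None of the 14 gene differences chosen to be recomputed under every setting changed sign, but others did. Cd36 between genotypes at 18 hours went from -0.93 over 16 arrays to 0.82 over 14. The genotype average of Lpl went from 0.26 over 16 arrays to -0.17 over 13. Other arrays in the fit did move counts, of the 10 and of all genes. Over the 12 arrays without the 18-hour groups, limma called 449 of all 30142 genes for the genotype average, against 0 over 16 arrays. For the genotype average, 0 over 16 arrays, 2 were called over 14 arrays, 3 over 13 arrays and 2 over 12 arrays, which hold no 18-hour array. For untreated mice 2 were called over 13 arrays, and at 6 days 1 when the compared groups alone were fitted. In the wild type at 2 weeks 1 was called over 14 arrays and 1 over 12 arrays, and in the knockout at 2 weeks 2 over 13 arrays. Leaving out each array in turn gave 0 to 2 for the genotype average, 0 to 3 for the genotypes at 2 weeks, 0 to 1 for the wild type at 6 days, 0 to 4 for the wild type at 2 weeks, 0 to 2 for the knockout at 2 weeks and 0 to 1 for the difference of responses at 2 weeks. In the wild type at 2 weeks 2424 of all genes were called over 16 arrays, 1097 after quantile normalization, 859 over 14 arrays, 3884 over 13 arrays and 619 with the compared groups alone. Between genotypes at 2 weeks, 55 genes became 26 after quantile normalization, 17 after median centring, 11 over 14 arrays and 6 over 13 arrays. With the compared groups alone 124 genes were called in untreated mice and 113 at 6 days, against 0 and 2. Fabp5, and Fabp1 in 7 knockout arrays, were not above the highest background control, which limits what their differences can show.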
